A study of Mus musculus with 9 samples.

Results

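The epidermal differentiation complex is a cluster of genes that encode much of the cornified envelope, and its expression was followed across 3 adjoining zones of the mouse stomach. Members were taken by gene symbol, as probe sets with a single gene symbol that begins with Lce, Sprr or S100a, or that reads Flg, Flg2, Hrnr, Rptn, Lor, Ivl, Crct1 or Tchh, with S100a8 and S100a9 left out. The rule took 52 of 45101 probe sets, which stand for 41 of the 18193 genes with 1 symbol, and all 41 lie on chromosome 3 in the GRCm38.p6 gene table. Flg2 had no such probe set and is not analysed here. For 38 of the 41 genes a probe set exceeded the 40th percentile of its array, a signal of 29.0 to 36.5, on at least 3 of the 9 arrays, and these were tested among 13637 genes. A gene that is bright in a single zone passes that filter through that zone, so the 38 are not a neutral sample of the 41. The hair calcium-binding gene S100a3, the small proline-rich gene Sprr2h and trichohyalin (Tchh), a protein of the hair follicle, did not pass, and their signals reached at most 58.3 on any array.

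All mice were untreated, healthy C57Bl/6 females at 3 months of age, and the zones were the only groups. The squamocolumnar junction is the boundary strip where squamous and glandular epithelium meet, the forestomach is lined by stratified squamous epithelium, and the corpus is glandular and secretes acid. Strips of all 3 zones came from the same 9 mice, pooled by 3 into 3 series, which gives 3 arrays for every zone, and arrays of equal number share mice. The labels call the samples epithelium, but the strips were not epithelium alone. The summed signal of 5 smooth muscle markers was 17575 to 21769 on the junction arrays and 16296 to 24102 on the corpus arrays. On the forestomach arrays it was 40825 to 46480. Of 5 markers of squamous basal cells (keratins Krt5, Krt14 and Krt15, Trp63 and Col17a1), the median reached 84.9% to 119% of its mean forestomach signal on the junction arrays and 0.643% to 1.84% on the corpus arrays. The median of 3 parietal cell markers was at 76.1% to 91.2% of its mean corpus signal on the junction arrays, and at 0.290%, 2.59% and 5.04% on forestomach arrays 1, 2 and 3. On the same forestomach arrays 3 chief cell markers stood at 0.157%, 1.59% and 3.22%. The parietal and chief sets share the gene Cblif, so they are not separate readings. The 4 mucous cell markers stood far higher on arrays 2 and 3, at 0.977%, 23.3% and 32.0%. The parietal, chief and mucous marker sets were thus higher on forestomach arrays 2 and 3 than on array 1, the mucous set by far the most. The source of this signal was not tested. Results that rest on forestomach arrays 2 and 3 are given without them too. Array medians ranged over signals of 47.9 to 57.1, and the number of arrays, 3 a zone, limits the precision.

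In squamous epithelium, cells that leave the basal layer end their lives as flat, cross-linked sheets. Involucrin, loricrin and the small proline-rich (Sprr) and late cornified envelope (Lce) proteins are joined by transglutaminases into an envelope under the cell membrane, while the S100-fused proteins such as filaggrin and hornerin bind keratin and fill the cell. The S100a genes at the ends of the cluster encode small calcium-binding proteins that many cell types make, among them gland cells, fibroblasts and leukocytes. The mouse forestomach is keratinised and is known to make such envelopes, whereas the corpus has no squamous layer.

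**Figure D1:**
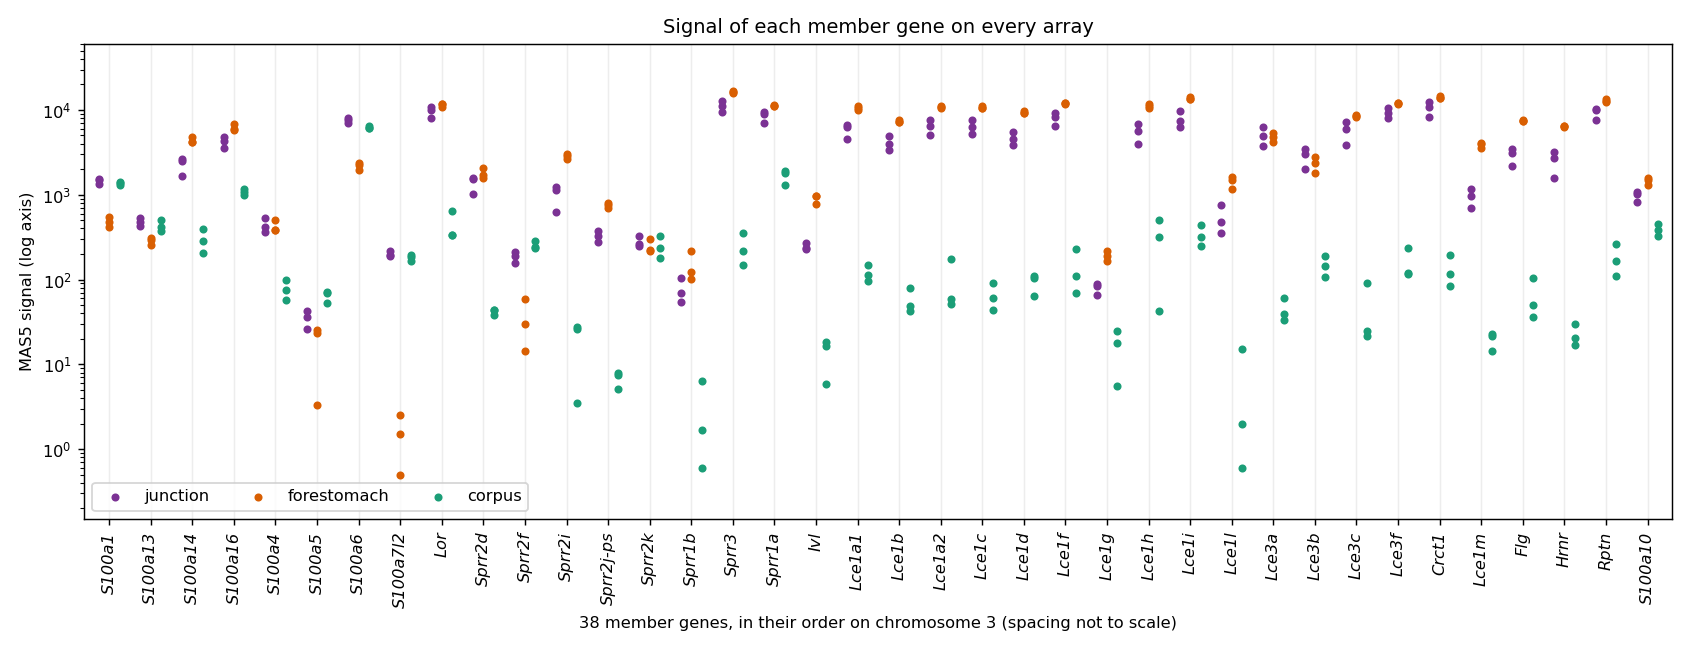
MAS5 signal (log axis) of the 38 tested member genes on every array, with genes in their order on chromosome 3 and 1 point per array for junction, forestomach and corpus. From Lor to Rptn the corpus points lie below those of the other zones except at Sprr2f and Sprr2k, while the S100a genes at the left end run both ways.

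Most of the complex was higher in the forestomach than in the corpus. By limma on log2(signal + 9.8), 31 of the 38 genes rose, 6 fell and Sprr2k did not pass, with a median log2 difference of 5.43, against -0.012 over all genes. Over all 13637 genes, 30.0% were called higher and 29.9% lower at an adjusted p under 0.05 (Benjamini-Hochberg over all genes). Forestomach and corpus arrays were fully separated for 31 members upward and 6 downward, and for 33.2% of all genes in each direction. All 15 Lce genes, the 3 S100-fused genes and the 3 other envelope genes rose, as did 6 of 8 Sprr genes and 4 of 9 S100a genes. In pieces of tissue, fewer cells of a type and less RNA per cell cannot be told apart. The smooth muscle markers, all 5 higher in the forestomach, moved with this comparison too, and their part in the results was not tested.

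Among the fused genes, hornerin (Hrnr), a large repeat protein of the cornified layer, had a signal of 6451.1, 6457.6 and 6354.9 in the forestomach and 30.2, 16.9 and 20.6 in the corpus. The corpus values lay under the filter level on all 3 arrays, so the difference is a bound, at least 145-fold (log2 difference 7.66 ± 0.25, SE, adjusted p = 1.09e-07). Filaggrin (Flg), whose precursor fills keratohyalin granules and which bundles keratin filaments, had 7580.1, 7359.3 and 7489.5 in the forestomach and 105.2, 36.3 and 50.5 in the corpus (109-fold, adjusted p = 3.54e-07). Repetin (Rptn), another fused protein of the envelope, was 71.7-fold higher, with means of 12869 ± 435 in the forestomach and 179.8 ± 76.1 in the corpus (SD, n = 3 each, adjusted p = 2.39e-07). For all 3 genes every forestomach array lay far above every corpus array. The corpus arrays scattered more than the forestomach arrays in proportion to their level, with array 1 the highest for all 3 genes.

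The envelope precursors followed. Loricrin (Lor), the main glycine-rich envelope protein of keratinised epithelium, had a signal of 11833.5, 11691.2 and 10924.1 in the forestomach and 644.1, 333.6 and 335.5 in the corpus (26.9-fold, adjusted p = 6.33e-07). Involucrin (Ivl), an early scaffold of the envelope, had 958.1, 970.4 and 768.2 in the forestomach and 16.4, 5.9 and 18.5 in the corpus, at least 20.3-fold (log2 difference 5.32 ± 0.22, adjusted p = 2.12e-07). Crct1, a cysteine-rich gene that lies among the Lce genes, was 105-fold higher (adjusted p = 1.95e-07). A further bright probe set of Lor gave a log2 difference of 6.00 and a dim one 1.65, and a dimmer probe set of Ivl gave 3.26, all in the same direction and past the threshold.

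Late cornified envelope proteins are small and rich in glycine, serine and cysteine, and join the envelope late. The 11 Lce1 genes tested had forestomach signals from 163.8 to 14283.1 and corpus signals from 0.6 to 509.3, and the 8 with a corpus array over the filter level had log2 differences from 5.34 (Lce1i) to 7.22 (Lce1c). Lce1g, Lce1l and Lce1m lay under that level on all corpus arrays and were at least 4.50-, 32.0- and 86.8-fold higher. The 4 Lce3 genes lay between 1820.7 and 12182.7 in the forestomach and between 21.4 and 237.3 in the corpus, with log2 differences from 3.92 (Lce3b) to 7.47 (Lce3c). Only 1 corpus array of Lce3c and 2 of Lce3a were over the filter level, so these differences rest partly on dim signals. Every one of the 15 had its 3 forestomach arrays above its 3 corpus arrays. Corpus signals of Lce1h ran unevenly, at 509.3, 42.4 and 315.1, and its error was the widest of the family (5.76 ± 0.71, adjusted p = 1.40e-04). Members of the family are close copies, and Lce1a1, Lce1d, Lce1h, Lce1i, Lce1m, Lce3b and Lce3c rest on probe sets that the array design marks as shared with or able to bind other transcripts, so signal may be shared between them.

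Small proline-rich proteins cross-bridge other envelope proteins, and this family did not move as a unit. Sprr3, a gene of internal squamous epithelia such as oesophagus, was the brightest member in the forestomach, at 15682.1, 16952 and 16246.4 in the forestomach and 351.8, 150.2 and 214.7 in the corpus (69.3-fold, adjusted p = 2.56e-07). Sprr1a, which is also made by stressed cells of other tissues, kept a high corpus signal, with 11072, 11312.5 and 11036.5 in the forestomach and 1928.3, 1297 and 1807.6 in the corpus (6.70-fold, adjusted p = 1.70e-06). Among the Sprr genes that rose, Sprr1a had the highest corpus signal. Sprr2d rose 34.4-fold, and the rises of Sprr2i, of the pseudogene Sprr2j-ps and of Sprr1b were at least 64.2-, 17.0- and 3.36-fold, since their corpus signals lay under the filter level. Sprr2f went the other way, with 14.2, 59.7 and 29.9 in the forestomach and 238, 244.1 and 282.5 in the corpus (log2 difference -2.71 ± 0.33, adjusted p = 1.21e-04). Sprr2k had 226.1, 302.5 and 215.3 in the forestomach and 329.5, 178.4 and 236.7 in the corpus, groups that overlap (log2 difference 0.025 ± 0.22, adjusted p = 0.932).

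**Figure D2:**
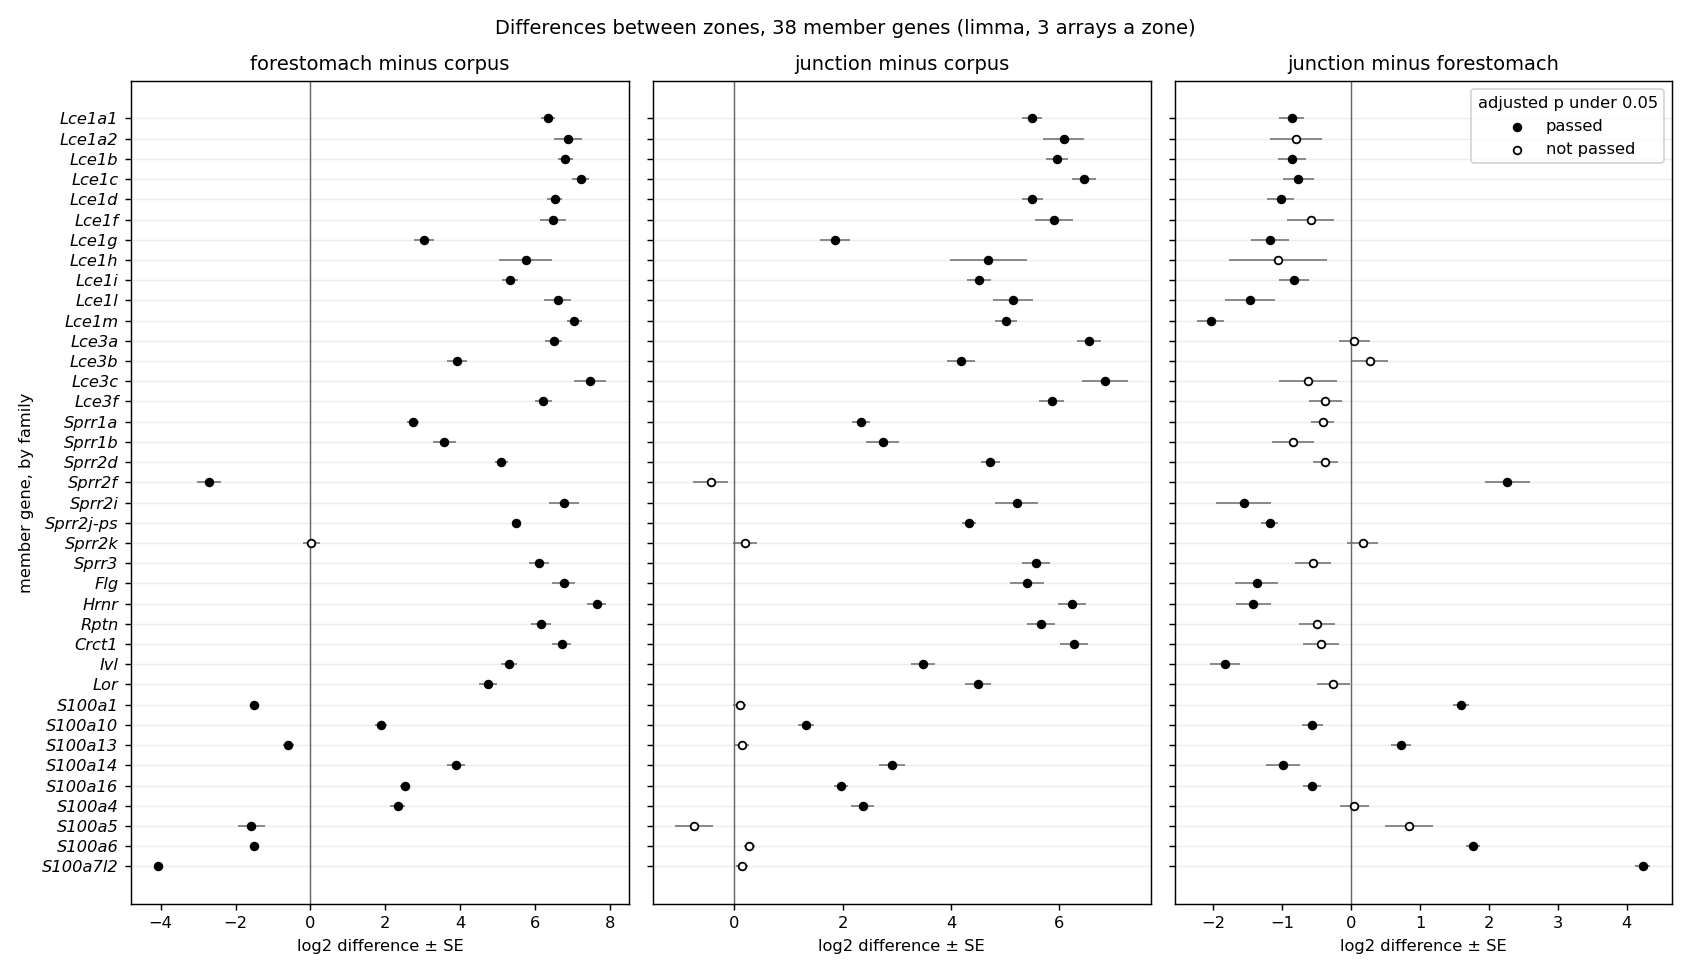
Log2 differences (± SE, limma, 3 arrays a zone) of the 38 members for forestomach minus corpus, junction minus corpus and junction minus forestomach, with filled points past an adjusted p of 0.05. Every Lce gene lies right of 0 in the left panel, where genes under the filter level in the corpus (such as Lce1g, Lce1l, Lce1m and Hrnr) stand at fitted values that are no bounds, and in the right panel the envelope genes lie mostly under 0 while S100a1, S100a6, S100a7l2, S100a13 and Sprr2f lie above it.

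The promoters of the Sprr2 genes are shown here because these related genes, which lie side by side on chromosome 3, took different directions. Each is the 250 bases before the start of the gene in the RefSeq promoter table (GRCm38.p6), 5′ to 3′ on the gene's own strand, for Sprr2d (chr3:92338890-92339139, plus strand) and Sprr2i (chr3:92407741-92407990, plus strand), which rose in the forestomach, Sprr2f (chr3:92364937-92365186, plus strand), which fell, and Sprr2k (chr3:92432332-92432581, plus strand), which did not pass. Involucrin (chr3:92573736-92573985, minus strand) and loricrin (chr3:92083143-92083392, minus strand) follow for comparison. Capitals mark matches to TGANTCA, a loose pattern for AP-1 sites in which N is any base, and to TATAAA, the TATA box.
Sprr2d: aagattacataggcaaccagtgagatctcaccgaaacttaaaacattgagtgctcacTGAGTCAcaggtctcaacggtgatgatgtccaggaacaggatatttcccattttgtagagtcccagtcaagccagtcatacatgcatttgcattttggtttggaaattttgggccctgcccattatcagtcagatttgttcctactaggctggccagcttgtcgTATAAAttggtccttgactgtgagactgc
Sprr2i: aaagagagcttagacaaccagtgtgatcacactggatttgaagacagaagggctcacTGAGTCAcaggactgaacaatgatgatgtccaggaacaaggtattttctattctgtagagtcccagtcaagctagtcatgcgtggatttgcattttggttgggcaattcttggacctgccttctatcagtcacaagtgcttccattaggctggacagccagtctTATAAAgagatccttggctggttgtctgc
Sprr2f: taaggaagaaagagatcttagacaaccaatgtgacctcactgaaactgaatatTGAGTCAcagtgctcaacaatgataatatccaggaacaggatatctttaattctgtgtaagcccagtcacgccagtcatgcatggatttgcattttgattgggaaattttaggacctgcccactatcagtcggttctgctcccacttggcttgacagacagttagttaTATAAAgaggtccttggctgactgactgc
Sprr2k: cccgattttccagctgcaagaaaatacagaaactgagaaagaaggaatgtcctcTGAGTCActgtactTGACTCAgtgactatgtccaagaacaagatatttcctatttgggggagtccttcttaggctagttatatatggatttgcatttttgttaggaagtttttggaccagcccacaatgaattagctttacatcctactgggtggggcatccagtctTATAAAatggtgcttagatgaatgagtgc
Ivl: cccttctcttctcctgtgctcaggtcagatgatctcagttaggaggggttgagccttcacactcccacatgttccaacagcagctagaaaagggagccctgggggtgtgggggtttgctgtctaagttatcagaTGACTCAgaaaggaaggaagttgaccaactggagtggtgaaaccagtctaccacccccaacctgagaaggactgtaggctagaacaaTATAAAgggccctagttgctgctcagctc
Lor: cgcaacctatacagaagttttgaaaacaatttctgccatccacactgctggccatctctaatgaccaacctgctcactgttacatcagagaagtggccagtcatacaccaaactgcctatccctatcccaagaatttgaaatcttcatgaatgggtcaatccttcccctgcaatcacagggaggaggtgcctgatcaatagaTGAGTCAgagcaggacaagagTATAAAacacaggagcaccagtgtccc
Sprr2d, Sprr2i and Sprr2f each held 1 AP-1 match and Sprr2k held 2, and in all 4 the TATA box began at position -29 from the start. The promoter of Sprr2f was 70.0% identical to that of Sprr2d and 72.9% to that of Sprr2i in a global alignment, against 76.9% between Sprr2d and Sprr2i. Sprr2k was further off, at 66.3% to Sprr2d, 64.5% to Sprr2i and 60.7% to Sprr2f. Both motifs were thus found in Sprr2 members of either direction. These directions are those of single probe sets, and whether the probe sets also bind transcripts of other Sprr2 genes was not tested.

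Of the 41 member genes, 36 matched the promoter table, with 40 promoters. The AP-1 letters, searched on both strands, were in 13 of the 40 (32.5%) and in 6.75% of the 32851 promoters of the same length, and the TATA letters were in 45.0% of the members' and 12.4% of all promoters. Matches were spread by family: 7 of 8 Sprr genes held an AP-1 match and 8 of 8 a TATA match, whereas 0 of 14 Lce genes held an AP-1 match and 2 of 14 a TATA match. The core letters of the Grhl site, ACCGGT, were in 1 member promoter, that of S100a13 (2.50%, against 1.86% of all promoters). Because N is any base, the AP-1 pattern also took TGAATCA (Flg, Sprr1b and S100a16) and TGATTCA (Rptn), which differ from TGAGTCA and TGACTCA. A match is not shown to be a bound site, and the absence of a match says only that the letters are not in this window.

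The S100a genes divided. S100a14, an S100 protein of epithelial cells, had 4200.4, 4850 and 4161.8 in the forestomach and 287.6, 205.8 and 392 in the corpus (14.9-fold, adjusted p = 2.10e-06). S100a16, a widely made relative that lies next to it on the chromosome, was 5.80-fold higher (adjusted p = 6.83e-07), and S100a10, the partner of annexin A2, was 3.70-fold higher (adjusted p = 9.58e-06). S100a4, a gene of fibroblasts and leukocytes, had 500.4, 381.4 and 383.3 in the forestomach and 56.7, 98.4 and 76.2 in the corpus (5.02-fold, adjusted p = 1.96e-05). Fibroblast markers moved with it: 5 of 6 were higher in the forestomach, with a summed signal of 26337 to 34249 in the forestomach and 14421 to 16822 in the corpus, and 4 of 5 macrophage markers were higher, at 2578 to 3136 in the forestomach and 1575 to 1813 in the corpus. The part of these cells in the S100a4 result was not tested.

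S100a6 (calcyclin), which binds annexins and is made by many epithelial and stromal cells, was the brightest of the members that fell, at 1935.8, 2363 and 2271 in the forestomach and 6079.1, 6384.3 and 6092.5 in the corpus (log2 difference -1.50 ± 0.10, adjusted p = 3.74e-06). S100a1, best known from heart muscle, fell by the same amount, with 415.2, 471.4 and 539.6 in the forestomach and 1298.8, 1398.4 and 1364.9 in the corpus (adjusted p = 6.43e-06), and its other probe set gave a log2 difference of -1.56. S100a7l2 was almost absent from the forestomach, at 0.5, 1.5 and 2.5, and read 183.5, 166 and 196 in the corpus, at least 4.85-fold higher in the corpus (adjusted p = 6.19e-08). None of these groups overlapped. S100a13 had 305.7, 253.5 and 292.5 in the forestomach and 372.8, 418.8 and 507.8 in the corpus (log2 difference -0.59 ± 0.14, adjusted p = 0.00613), a call that was lost without series 2 (adjusted p = 0.0556) and without forestomach arrays 2 and 3 (adjusted p = 0.104; range over its alternatives 0.00127 to 0.104). S100a5, a dim gene, had 25.2, 23.3 and 3.3 in the forestomach and 52.3, 72.2 and 69.5 in the corpus, at least 1.87-fold higher in the corpus (adjusted p = 0.00425). Along the chromosome, S100a1, S100a13, S100a14, S100a16, S100a4, S100a5 and S100a6 follow each other in this order among the tested members, so that 3 neighbours that rose stand between pairs that fell.

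**Figure D3:**
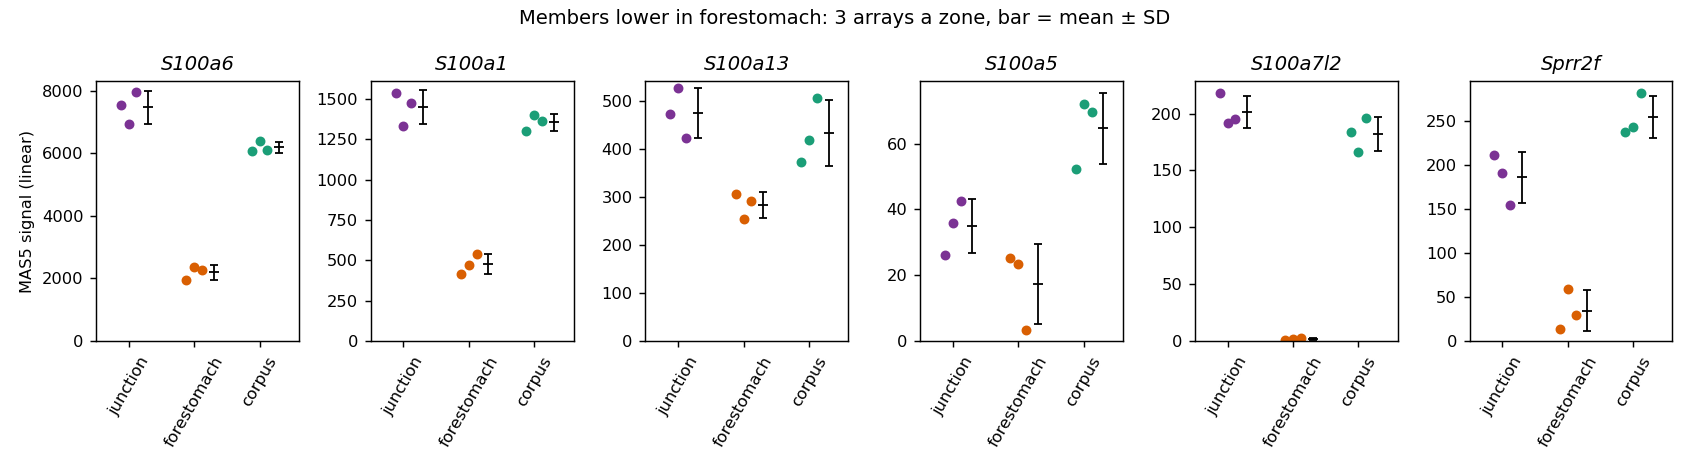
MAS5 signal (linear axis from 0) of the 6 members called lower in forestomach than corpus, with 1 point per array and the mean ± SD of 3 arrays for junction, forestomach and corpus. The junction arrays of S100a6, at 6924.5 to 7973.9, and of S100a7l2, at 191.5 to 217.7, stand with the corpus arrays and far above the forestomach arrays.

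The junction was compared with the corpus next. The 31 genes that were higher in the forestomach were all higher in the junction as well, and 0 of the 38 were called lower (0 also at an unadjusted p under 0.05, and 0 with limma's trend and robust options), while 13.2% of all genes were called higher and 11.8% lower. The median log2 difference of the 38 was 4.60, against -0.050 over all genes. Both comparisons share the corpus arrays, so they are not separate evidence. On the log2(signal + 9.8) scale, and among genes with a corpus array over the filter level, the largest differences were those of Lce3c (log2 difference 6.85 ± 0.42, adjusted p = 8.71e-06), Lce3a (6.54 ± 0.23, adjusted p = 7.46e-07), Lce1c (6.45 ± 0.23) and Crct1 (6.27 ± 0.26). Lce3c and Lce3a had only 1 and 2 of their 3 corpus arrays over that level, so their sizes rest partly on dim signals. The 31 calls held in every alternative run.

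Of the 6 genes that were lower in the forestomach, 0 passed between junction and corpus. S100a6 had 7537.2, 6924.5 and 7973.9 in the junction and 6079.1, 6384.3 and 6092.5 in the corpus, so that the arrays did not overlap, but the difference did not pass (log2 difference 0.27 ± 0.10, adjusted p = 0.0896, and 0.0283 with limma's trend and robust options). S100a1 (0.094 ± 0.11), S100a13 (0.14 ± 0.14) and S100a7l2 (0.14 ± 0.11) also did not pass. Sprr2f had 211.6, 191.7 and 155.3 in the junction and 238, 244.1 and 282.5 in the corpus (-0.44 ± 0.33, adjusted p = 0.362). S100a5 had 26.3, 36 and 42.6 in the junction and 52.3, 72.2 and 69.5 in the corpus (-0.74 ± 0.35, adjusted p = 0.158), and it passed when forestomach array 3 was left out (adjusted p = 0.0174) or only the 6 arrays were fitted (0.0284; range 0.0174 to 0.402). A value that did not pass is not shown to equal that of the corpus.

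In the junction, part of the envelope genes were lower than in the forestomach. Of the 31 genes high in the forestomach, 16 were lower in the junction, 15 did not pass and 0 were higher, and over all genes 23.1% were called lower and 21.5% higher. The 31 were named from the same forestomach arrays, so this count is not separate evidence, and genes that passed and did not pass were not tested against each other. All genes are not a like comparison for a set chosen as high in the forestomach. The share among other genes chosen that way was not counted. Among all 38 members the arrays were fully separated downward for 26 and upward for 6, against 29.8% and 26.0% of all genes. Involucrin had 229.5, 270.4 and 233.4 in the junction and 958.1, 970.4 and 768.2 in the forestomach (log2 difference -1.83 ± 0.22, adjusted p = 2.13e-04). Lce1m, the last Lce gene before filaggrin, had 692.4, 1182.7 and 975 in the junction and 4049.9, 3976.9 and 3532.1 in the forestomach (-2.04 ± 0.20, adjusted p = 7.01e-05). Hornerin had 1565.4, 2700.9 and 3224.7 in the junction and 6451.1, 6457.6 and 6354.9 in the forestomach (-1.42 ± 0.25, adjusted p = 0.00209). For these 3 genes the junction arrays all lay below the forestomach arrays. Filaggrin was lower by a similar amount (-1.37 ± 0.31, adjusted p = 0.00665), but not without series 3 (0.0505) or without forestomach arrays 2 and 3 (0.0813; range 7.65e-04 to 0.0813).

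At the other end, loricrin had 8081.7, 10003.3 and 10917.2 in the junction and 11833.5, 11691.2 and 10924.1 in the forestomach (-0.26 ± 0.24, adjusted p = 0.418), and its other probe sets gave -0.28 and 0.16. Lce3a had 3802.6, 4951.5 and 6362.9 in the junction and 4233.2, 5378 and 4822.3 in the forestomach (0.042 ± 0.23, adjusted p = 0.895). Lce3b had 2025.8, 3052.7 and 3419.3 in the junction and 1820.7, 2787.4 and 2380.6 in the forestomach (0.27 ± 0.26, adjusted p = 0.433). The arrays of Lce3a and Lce3b overlapped between both zones. In counts, 8 of 11 Lce1 genes and 0 of 4 Lce3 genes were lower in the junction, with median log2 differences of -0.87 and -0.17, and the difference between both families was not tested. With only the 6 arrays of these zones compared, Lce3f passed as well (adjusted p = 0.0419). In that fit Lce1a2 (0.00796), Lce1f (0.0195) and Lce1h (0.00531) also passed. Lce3c passed without corpus array 1 (0.0457). Repetin (-0.50 ± 0.26), Crct1 (-0.44 ± 0.26), Sprr3 (-0.55 ± 0.26) and Sprr2d (-0.38 ± 0.18) did not pass, and Sprr2i (-1.56 ± 0.40, adjusted p = 0.0125) and Sprr2j-ps (-1.18 ± 0.13, adjusted p = 1.38e-04) were lower. Among the S100a genes, S100a10, S100a14 and S100a16 were lower in the junction (-0.57, -0.99 and -0.57), and S100a4 was not called (0.042 ± 0.21). The probe set used for S100a10 is of the kind marked as able to bind other transcripts. A second bright probe set of this gene gave -0.41 and did not pass (limma, adjusted p = 0.0551 among all probe sets), while its dimmest passed (0.0445).

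How bright a gene is moved with these results. Of the 12 risen members with a mean forestomach signal over 10000, 3 were lower in the junction (median log2 difference -0.57), and of the 19 at or below that level 13 were (median -0.99). These counts depend on the arrays fitted. When the corpus arrays were left out, Lce1a2, Lce1f, Lce1h, Lce3f, Rptn, Sprr1a and Sprr3 were lower as well, all with means over 10000. Probe sets of 1 gene did not show 1 pattern. For Lce1f the bright one, at 6419.8 to 9309.1 in the junction and 11609.9 to 12129.4 in the forestomach, gave -0.59 (adjusted p = 0.206 among all probe sets), and the dimmer one, at 481 to 816.2 in the junction and 2583.2 to 2743.8 in the forestomach, gave -1.98 (adjusted p = 1.04e-04). For Lce1a1 a pair of probe sets gave the same -0.87. The dimmer probe set gave -1.74 for Ivl, against -1.83 for the brighter, the dimmest gave -0.37 for S100a10, against -0.57, and the dim one gave 0.16 for Lor, against -0.26. The part of brightness in the difference between genes was not tested.

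Of the 16 lower calls, 15 held without any single array, the exception being Lce1c (adjusted p = 0.0238, and 0.0556 to 0.0825 without junction array 1 or 2 or without any of the forestomach arrays). Without a whole series 6 of the 16 held throughout, namely Hrnr, Ivl, Lce1a1, Lce1d, Lce1m and Sprr2j-ps. Series 1, 2 and 3 took part in the losses: S100a14 without series 1 (0.0966), Lce1b, Lce1i and Lce1l without series 2 (0.0945, 0.126 and 0.107), Lce1g without series 3 (0.0516), S100a10 and S100a16 without series 1 (0.151 and 0.066) or 2 (0.0691 and 0.0678), and Sprr2i without series 2 or 3 (0.0674 and 0.0571). With a pseudocount of 1 the calls of Lce1g (0.051), Lce1l (0.143) and Sprr2i (0.0888) were lost. The count of 16 became 9 without series 2, and 4 without forestomach arrays 2 and 3 together, where a single forestomach array is left and is taken to vary like the others. It became 22 without corpus array 1 and 23 with the corpus arrays left out, which added Lce1a2, Lce1f, Lce1h, Lce3f, Rptn, Sprr1a and Sprr3. The log2 differences of all 16 stayed below 0 in every alternative, the nearest being -0.43.

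The 6 members that were low in the forestomach were higher in the junction in 5 cases, a count read from the forestomach arrays that also named them and so no separate evidence. S100a7l2 had 217.7, 191.5 and 195.4 in the junction and 0.5, 1.5 and 2.5 in the forestomach, at least 5.35-fold (adjusted p = 2.60e-07). S100a6 was 3.41-fold higher (log2 difference 1.77 ± 0.10, adjusted p = 4.41e-06) and S100a1 3.01-fold (adjusted p = 1.29e-05). Sprr2f was 4.81-fold higher (2.27 ± 0.33, adjusted p = 6.55e-04) and S100a13 1.65-fold (0.72 ± 0.14, adjusted p = 0.00316, and 0.0602 without series 2 and 0.07 without forestomach arrays 2 and 3). S100a5 did not pass (0.84 ± 0.35, adjusted p = 0.0838), though it did without forestomach array 1 (0.0485; range 0.0485 to 0.359). Gland marker signal was higher on forestomach arrays 2 and 3 than on array 1, and the alternatives include a fit without them. Over all alternatives the lowest log2 differences of S100a1, S100a6, S100a7l2 and Sprr2f were 1.46, 1.68, 2.84 and 1.78.

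No member lay above or below both neighbours in the junction by an intersection-union test with limma (0 and 0 of 38, against 0.198% and 0.0147% of all genes), and at an unadjusted p under 0.05 only S100a6 lay above both. On the linear scale the place of the junction between corpus, at 0, and forestomach, at 1, was taken within each series for the 30 members that were at least 4-fold higher in the forestomach. The median over them was 0.571, and over the 607 genes of the whole table with such a difference it was 0.409. Lce1m (0.273), Ivl (0.274) and Lce1l (0.290) lay nearest to the corpus, and Lor (0.851), Lce3a (0.920), S100a4 (1.12) and Lce3b (1.13) nearest to or past the forestomach. Lce3b was past 1 in each series, at 1.13, 1.10 and 1.46. The Lce1 genes ran from 0.273 to 0.680 and the Lce3 genes from 0.679 to 1.13.

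The series differed in the same way for most members. The median position was 0.459 in series 1, 0.571 in series 2 and 0.713 in series 3, and series 1 was lowest for 27 of the 30 genes. Of the 31 risen members, 30 had their lowest junction signal on array 1 and 27 their highest on array 3. These orders were not counted over other genes high in the forestomach, so they are not shown to be particular to the members. The summed signal of the squamous basal markers was 12327.1, 15338.6 and 17966.5 on junction arrays 1, 2 and 3, so the amount of squamous transcript moved with the envelope genes from pool to pool. Its part in the order of the genes was not tested.

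**Figure D4:**
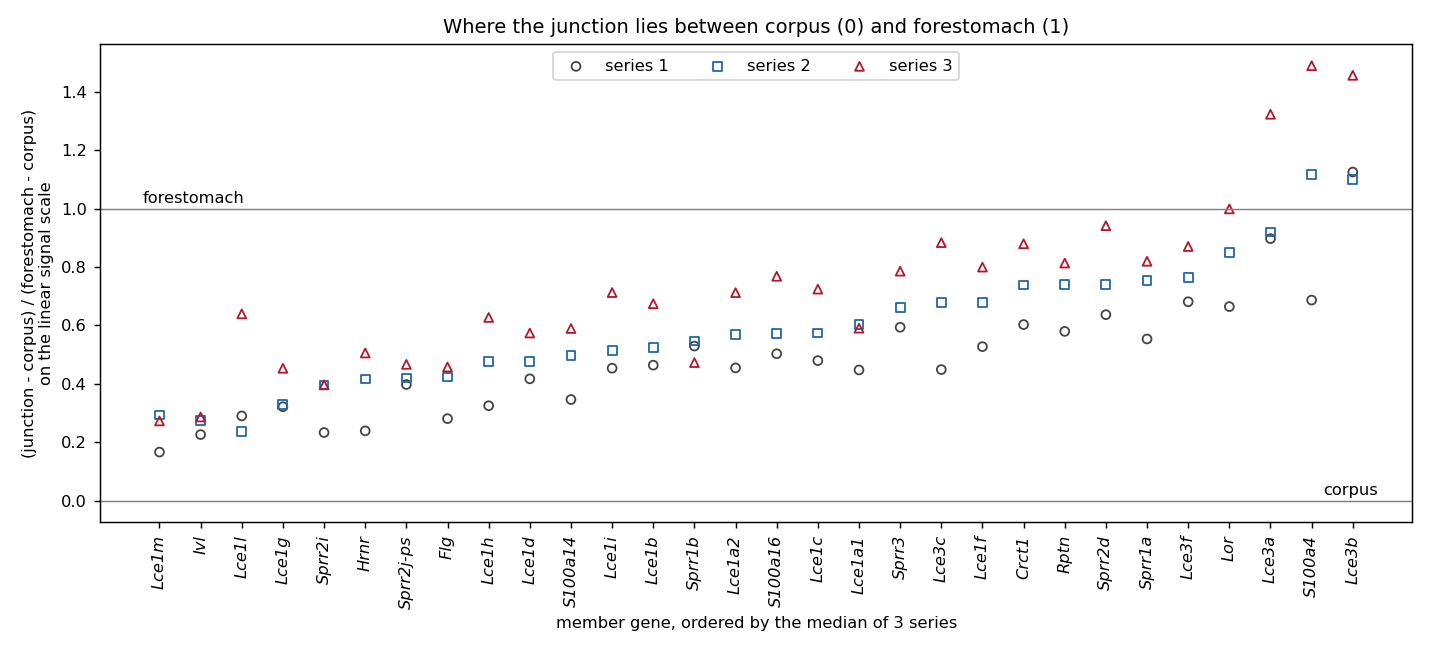
Position of the junction for the 30 members at least 4-fold higher in forestomach than corpus, on a linear signal scale where corpus is 0 and forestomach is 1, with a symbol for each series. Lce1m and Ivl sit at about 0.27, most Lce1 genes near the middle, and Lce3b lies past 1 in each series.

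The partners of the complex were read from lists of genes outside the membership rule, whose counts stand beside 30.0% of all genes higher and 29.9% lower for forestomach against corpus, 13.2% and 11.8% for junction against corpus, and 21.5% and 23.1% for junction against forestomach. Of 14 genes of the envelope scaffold and its crosslinkers, all 14 were higher in the forestomach than in the corpus, all 14 were higher in the junction than in the corpus, and 9 were lower in the junction than in the forestomach. Transglutaminase 1 (Tgm1), which crosslinks the envelope, was at least 39.6-fold higher in forestomach than corpus and had a log2 difference of -1.37 between junction and forestomach, and the protease inhibitor Cst6 had log2 differences of 7.23 and -1.67 in these comparisons. The desmosome genes Dsc1 and Pkp1 stood at 6.99 and 6.86 in forestomach against corpus. Of 11 measured genes of profilaggrin processing, 8 rose and 3 fell in the forestomach. Caspase 14 (Casp14), which helps to break down filaggrin, was at least 63.5-fold higher there, and the skin proteases Klk7 and Klk5 and their inhibitor Spink5 had log2 differences of 7.15, 6.44 and 7.13. In the junction against the forestomach 5 of these 11 were lower and 3 higher, with Casp14 at -1.62.

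Among 28 measured transcription factors known to act on the complex, 19 were higher and 3 lower in the forestomach than in the corpus, and 16 were higher and 0 lower in the junction than in the corpus. In the junction against the forestomach, 15 were lower and 3 higher. Grhl3, which drives late keratinocyte genes, had 351.3, 575.3 and 603.5 in the junction, 1206.6, 1325.8 and 1165 in the forestomach and 38.1, 12.9 and 17 in the corpus (log2 difference 5.33 for forestomach minus corpus, adjusted p = 9.24e-07, and -1.29 for junction minus forestomach, adjusted p = 0.00667). Trp63, Tfap2c and Gata3 rose as well, by at least 37.4-, 11.5- and 3.84-fold in forestomach over corpus. Klf4, a barrier factor that gland cells also make, was not called in any comparison, with 5147.9, 4796 and 6084.7 in the junction, 6109.6, 6966.4 and 5709.1 in the forestomach and 5429.7, 5656.7 and 6259.3 in the corpus. Its arrays overlapped between all zones.

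Of 7 suprabasal keratin genes measured, 5 were higher in the forestomach than in the corpus and 7 in the junction, among them Krt4 (6.01 for forestomach minus corpus), Krt13 (5.70), Krt10 (4.92) and Krt1 (4.59). In the junction against the forestomach 3 were higher and 0 lower. These 3 are Krt6a, Krt6b and Krt16, keratins of stressed epithelium, named after their values were seen, with log2 differences of 3.88, 3.36 and 3.02. The neutrophil and keratinocyte genes S100a8 and S100a9, which the rule leaves out, lie within the complex. S100a9 had 1072.7, 1364.8 and 2084.1 in the junction, 926.9, 1010.6 and 1309.4 in the forestomach and 19.7, 1.7 and 25.6 in the corpus, and S100a8 had 161.4, 128.6 and 404.7 in the junction, 34.3, 59.9 and 72.7 in the forestomach and 12.6, 11.4 and 8.3 in the corpus. In the junction against the forestomach S100a8 was higher (log2 difference 1.76 ± 0.39, adjusted p = 0.00636) and S100a9 was not called (0.44 ± 0.41, adjusted p = 0.425).

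Annexins and receptors that bind S100 proteins were measured for 5 of 6. Anxa1 (2.66), Ahnak (1.31) and Anxa2 (0.84), the partner of S100a10, were higher in the forestomach than in the corpus, and the dim receptor gene Ager was at least 1.37-fold lower. Of the S100 genes elsewhere in the genome, S100b, a glial gene, was higher in the forestomach (1.10) and lower in the junction than in the forestomach (-1.25). The glia markers did not move with it as a set. Of 3 measured, S100b among them, 1 was higher in the forestomach than in the corpus and 2 were not called (median log2 difference -0.42). Of 17 measured genes that flank the complex on chromosome 3, 6 were higher and 5 lower in the forestomach than in the corpus (median log2 difference 0.19), shares near the 30.0% and 29.9% of all genes. Them5, a thioesterase gene, was the largest of these at 6.78, with 5733.5, 6164.8 and 6231.3 in the forestomach and 58.2, 41.8 and 38.1 in the corpus, and Tuft1 followed at 2.29. Tpm3 (-1.04) and the dim Tdrkh (at least 1.74-fold) were lower in the forestomach.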

How the data were processed

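Strips of junction, forestomach and corpus from pooled mice were measured on 9 Affymetrix mouse arrays, 3 for each zone. The authors deposited linear intensity signals, for which the submitters' processing notes name MAS5. Neither its version nor its settings are stated in those notes. Each array has a trimmed mean (2% off each end) of 200, which points to scaling to a common target. MAS5 subtracts mismatch probes, which leaves dim signals noisy.

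Probe sets were named from the platform annotation of 2016, which gave 1 symbol to 34958 of 45101 probe sets, more than 1 to 932 and none to 9211. Entrez IDs led to a current symbol in the RefSeq table (GRCm38.p6) for 34754, and 64 control probe sets were left out. Probe sets entered if they exceeded the 40th percentile of an array on 3 or more arrays, and the one with the highest mean log2 value over the 9 arrays stood for its gene, which need not be the brightest in every zone. For 7 member genes more than 1 probe set was kept. Values were analysed as log2(signal + 9.8), a pseudocount set at the 20th percentile of a typical array, so folds of dim genes are understated. Where a zone lay under the filter level on all 3 arrays, a fold is given as "at least", computed with the filter level in place of the dim signals. Differences were fitted with limma 3.58.1 in R 4.3.3 over all 9 arrays, with 1 mean per zone (6 residual and 2.56 prior degrees of freedom), two-sided, with Benjamini-Hochberg adjustment over all 13637 genes and a threshold of 0.05. The method was tested on simulated data. Genes above or below both neighbours were taken by the larger of both p-values where both differences had the same sign. Promoters are from the RefSeq table, aligned with biopython 1.88, and figures used Python 3.11.15 and matplotlib 3.10.9.

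Every member could be named. Of each list, up to 4 genes past the threshold with the largest difference between forestomach and corpus are named. S100a8, S100a9, Crnn, Klf4, Grhl3, Krt5 and Atp4a were fixed besides, whatever their values. Krt5 and Atp4a entered only as markers of cell types. Of 7 listed genes inside the complex but outside the membership rule, only S100a8 and S100a9 were measured, so Crnn has no value here. Krt6a, Krt6b and Krt16 fall outside the naming rule and were named after their values were seen. The members and the lists were chosen with earlier results of these data known. Arrays of the same number come from the same mice, so the numbers pair them by source. Blocking on the series was tried as an alternative. Deviations from zone means correlated at r = -0.0287 to 0.123 between arrays of 1 series (mean 0.0329, 9 pairs). Other alternatives were other pseudocounts (1 and 30.9), filters, normalizations and ways to join probe sets, limma's trend and robust options, the 6 arrays compared alone, and leaving out arrays or series. No alternative was added later.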

Additional observations from a re-analysis of the deposited data

How the results depend on the processing

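The calls of forestomach against corpus and of junction against corpus were stable for the members, and those of junction against forestomach were not. Without single arrays or series the members higher and lower in forestomach than corpus numbered 31 to 31 and 5 to 6, those higher and lower in junction than corpus 31 to 31 and 0 to 1, those higher and lower in junction than forestomach 4 to 6 and 9 to 22, and those above or below both stayed at 0 and 0. With the series as a replicate block these counts were 31 and 6, 31 and 0, 5 and 17, and 0 and 0. The block added Sprr1b (adjusted p = 0.0445) to the members lower in junction than forestomach and changed no other member's call. With only the 6 arrays compared, 1 member (S100a5) was lower in junction than corpus, and 23 instead of 16 were lower in junction than forestomach. The log2 differences were the same as in the fit to all 9 arrays, such as -0.55 for Sprr3, -0.50 for Rptn and -1.07 for Lce1h. The calls thus changed through the estimate of the spread and the adjustment of p alone. The part of the scatter of the left-out arrays was not tested. Testing each probe set gave 39 and 7 member probe sets for forestomach against corpus, and without forestomach replicates 2 and 3 there were 4 members lower in junction than forestomach. The signs of values that did not pass turned for Sprr2k without replicate 2 and for S100a4 in junction against forestomach without replicate 3 or without forestomach replicates 2 and 3 (-0.21). Over the fits that leave out a single array or a single series, Sprr2k ran from -0.33 to 0.30 for forestomach against corpus and from -0.13 to 0.44 for junction against corpus, and S100a4 from -0.17 to 0.29.

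Over all genes, testing each probe set gave 6479 higher and 7211 lower for forestomach against corpus (4085 and 4083 genes in the report's fit), 2541 lower for junction against corpus (1606) and 4712 higher and 5027 lower for junction against forestomach (2927 and 3152), as more features are tested. Median centring gave 873 lower for junction against corpus, and without forestomach replicates 2 and 3 there were 1788 lower for junction against forestomach. Without single arrays or series the counts ran from 3250 to 4061 higher and 3221 to 4077 lower for forestomach against corpus, 899 to 1734 higher and 322 to 1585 lower for junction against corpus, and 1985 to 2853 higher and 1961 to 3126 lower for junction against forestomach. Genes above both numbered 27 and genes below both 2. They became 12 and 1 with pseudocount 1, 67 and 8 with the larger one, 16 and 1 without a filter, 50 and 9 with the stricter filter, 12 and 0 with the replicate block, 50 and 14 with trend and robust options and 8 and 0 without forestomach replicates 2 and 3. The mean of probe sets gave 43 above, median centring 1 below, and leaving out arrays or series 0 to 21 above and 0 to 3 below. The cause was not tested. Dim corpus signals limit the size of the folds, and 3 arrays a zone limit the calls.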

Other observations

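The 4 probe sets of the complex that carry several symbols, and so fall outside the membership rule, stand for Sprr2a genes or for S100a11. A probe set shared by Sprr2a1 and Sprr2a2 read 2836.6, 3119.8 and 2606.6 in the junction, 89.2, 115.1 and 126.2 in the forestomach and 2688.4, 2468.3 and 3239.1 in the corpus, so its forestomach arrays lay far below all others, as for Sprr2f. A brighter one with the same symbols read 10545, 9464.7 and 11321 in the junction, 6154.7, 7159.5 and 7358.4 in the forestomach and 11618.3, 10928.6 and 7207.7 in the corpus, where forestomach and corpus overlapped. Another, shared with Sprr2a3, read 13319.4, 11281.3 and 14956.3 in the junction, 8561.3, 9905.8 and 10904.8 in the forestomach and 13968.3, 13039.6 and 9357.8 in the corpus. Which copy gives the signal cannot be read from these probe sets. A probe set shared by S100a11 and its pseudogenes read 5682.6, 6304 and 7355.9 in the junction, 5346.8, 6041.6 and 5316 in the forestomach and 3332.4, 3024.4 and 3582.6 in the corpus, with every corpus array below the others.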
